A study of Homo sapiens with 10 samples.

Results

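The oncofetal genes LIN28A, LIN28B, IGF2BP1, IGF2BP2, IGF2BP3, HMGA1 and HMGA2 were followed by symbol in polyadenylated RNA of HEK293FT cells, an established line of human embryonic kidney origin that takes up plasmids well. All 7 were found among the 19301 named features of the expression table, LIN28A under its older symbol LIN28, and 6 of them reached the mean level of 1 FPKM needed for testing. Levels are in FPKM, which counts sequenced fragments relative to transcript length and library size, so that levels can be compared between genes. The cells carried lentivirally integrated Gaussia and Cypridina luciferase reporters in every group, and every library came from cells transfected with a plasmid for dCas9-VP64, a nuclease-dead Cas9 joined to a transcriptional activator, together with pNEB193 carrier plasmid. The CasVP group received no guide. The groups named sgRNA, INT, P4P6 and TOP1 also received a plasmid that made a guide of that name, each directed at the Gaussia reporter. RNA was taken 3 days after transfection. There were 5 groups of 2 libraries, and each library is named here by its group and the index 0 or 1 of its column. No label tells if paired libraries were grown as separate cultures, so p-values measure the spread between these samples, which may be technical. All groups carried dCas9-VP64, so none gives the level in untransfected cells, and the values are averages over transfected and untransfected cells of a well.

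LIN28A and LIN28B are RNA-binding proteins of embryonic cells that bind the precursors of the let-7 microRNAs and block their maturation. Mature let-7 in turn represses messenger RNAs that pair with its seed, and transcripts of the LIN28, IGF2BP and HMGA families are textbook let-7 targets. The IGF2BP proteins bind messenger RNAs, in part through N6-methyladenosine, and protect them from decay, while the HMGA proteins bind AT-rich DNA through AT hooks and bend chromatin. These genes are known as oncofetal because they are active in the embryo, quiet in most adult tissues and active again in many tumours, although IGF2BP2 and HMGA1 are found more widely.

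The sequences that link these genes to let-7 are shown because the microRNA itself is not captured by selection for polyadenylated RNA, and its level was not analysed here. All 9 human 5p microRNAs of the let-7 and miR-98 group in RefSeq (GRCh38.p14) carried the same seed, bases 2 to 8, which is in capitals in these 3 examples.
let-7a-5p: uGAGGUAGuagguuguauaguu
let-7d-5p: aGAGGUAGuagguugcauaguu
miR-98-5p: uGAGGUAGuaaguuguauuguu

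LIN28 proteins recognise the letters GGAG in the precursor loop. These letters followed the 5p arm in 9 of the 12 human hairpins of the group and in 18.9% of the 798 RefSeq hairpins with a 5p arm, and were not found there in those of MIR98, MIRLET7A3 and MIRLET7B. The hairpin of MIRLET7G (GRCh38.p14, chr3:52268278-52268361, minus strand) is shown with the letters in capitals, and that of MIRLET7B (chr22:46113686-46113768, plus strand) without them.
MIRLET7G: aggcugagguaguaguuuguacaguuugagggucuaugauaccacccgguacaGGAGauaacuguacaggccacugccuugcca
MIRLET7B: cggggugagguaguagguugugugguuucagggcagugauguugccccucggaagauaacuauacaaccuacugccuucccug

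The reverse complement of the seed, CTACCTC in DNA letters, was searched in the 3' UTR sequence of the principal transcript of each gene (GENCODE 29, GRCh38). It was present in all 7 genes, against 8.58% of 19098 genes, whose median 3' UTR of 877 bases was shorter than that of each of the 7. The principal transcript was taken after the longest 3' UTR of HMGA2 was seen to lack a match. The 8-base form CTACCTCA, which contains the shorter motif, was present in 6 of the 7, HMGA1 being the exception, against 3.26% of genes. These genes are known let-7 targets and the search was chosen with the data in hand, so the matches describe the genes and test nothing. For each gene, 30 bases of the 3' UTR around 1 match are shown, with the match in capitals.
LIN28A: agcctattgaaCTACCTCAtttttgccaat
LIN28B: ggttgcaaagtCTACCTCAtgcaagtatag
IGF2BP1: tgcgaagtaaaCTACCTCAaggtatgaagt
IGF2BP2: cacagaagaagCTACCTCAggtgtttttac
IGF2BP3: tttttactcaaCTACCTCAggtattcagta
HMGA1: ctgttcacaaaCTACCTCtggacagttgtg
HMGA2: acgttcgatttCTACCTCAgcagcagttgg

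In GRCh38 these windows lie at chr1:26427352-26427381 for LIN28A, chr6:105078816-105078845 for LIN28B, chr17:49051065-49051094 for IGF2BP1, chr6:34245833-34245862 for HMGA1 and chr12:65963302-65963331 for HMGA2, all on the plus strand. Those of IGF2BP2, chr3:185644209-185644238, and IGF2BP3, chr7:23311784-23311813, are on the minus strand. LIN28B, IGF2BP1 and HMGA2 each held 4 matches to CTACCTC, in 3' UTRs of 4549, 6206 and 3003 bases. Each gene was set beside the other genes with a 3' UTR of similar length (within a factor of 0.8 either way), itself left out. Of these others, 0.153% held at least as many matches as LIN28B, 0.410% as IGF2BP1 and 0.0493% as HMGA2. The other 4 genes held 1 match each, which 8.44% (HMGA1) to 16.8% (LIN28A) of genes of similar 3' UTR length had. The HMGA2 isoform with the longest 3' UTR, 7421 bases, held 0 matches, and the principal transcript was taken after that was seen. The share given for HMGA2 rests on that choice and tests nothing. The table does not show which isoform the FPKM came from.

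**Figure D1:**
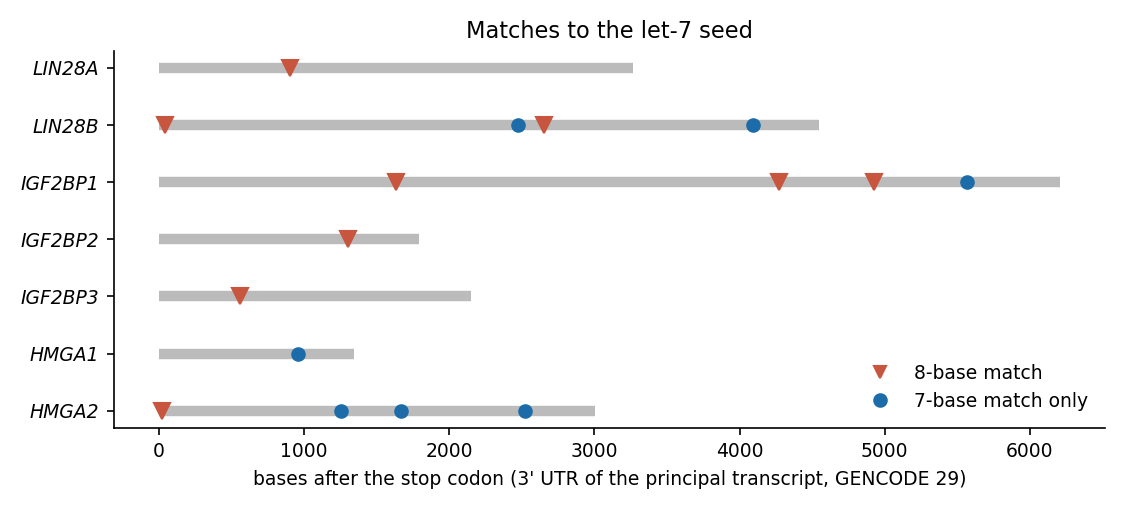
Positions of the let-7 seed matches along the 3' UTR of each gene, in bases after the stop codon. Grey bars are the 3' UTRs of the principal transcripts, triangles are matches to the 8-base form and circles are matches to the 7-base form only. LIN28B, IGF2BP1 and HMGA2 have 4 matches each and the other genes have 1. The HMGA2 isoform with the longest 3' UTR, not drawn, has 0.

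HEK293FT cells contained RNA for 6 of the 7 genes at means of 19.4 to 159 FPKM, and these 6 stayed within 1.23-fold between the highest and lowest library. HMGA1, the more widely expressed AT-hook protein, was at 159 FPKM (SD 7.38, n = 10 libraries), above 97.8% of named and 96.3% of tested features. HMGA2 followed at 35.8 (SD 1.95), IGF2BP1 at 33.9 (SD 2.41), IGF2BP3 at 27.5 (SD 0.954), LIN28B at 24.9 (SD 1.55) and IGF2BP2 at 19.4 (SD 0.963), above 75.9 to 86.4% of named features. Among tested features, these 5 stood above 59.8% (IGF2BP2) to 77.4% (HMGA2). LIN28A was at 0.0992 FPKM (SD 0.0257), below the level needed for testing. LIN28 RNA in these cells was thus almost all LIN28B.

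The LIN28 pair showed the widest gap within a family. LIN28B, the blocker of let-7 maturation found in many tumour lines, was at 25.5 and 25.4 FPKM in CasVP, 25.8 and 26.3 in sgRNA, 23.3 and 25.1 in INT, 23.2 and 21.9 in P4P6, and 26.6 and 25.9 in TOP1. The P4P6 libraries were the lowest 2 of the 10, just under INT library 0, and TOP1 library 0 was the highest. LIN28A, the form of pluripotent stem cells, was at 0.0666 and 0.123 FPKM in CasVP, 0.0710 and 0.0826 in sgRNA, 0.120 and 0.148 in INT, 0.0813 and 0.0961 in P4P6, and 0.0942 and 0.110 in TOP1. At the depths estimated from the lowest values of the table, LIN28A rested on about 5.49 to 13.2 fragments per library, so differences between its groups are not readable at this depth. The ratio of LIN28B to LIN28A was between 170 and 383 in every library, a range set largely by those few fragments.

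The 3 IGF2BP genes were all active and close in level. IGF2BP1, a fetal messenger RNA stabiliser, was at 33.5 and 32.3 FPKM in CasVP, 32.8 and 32.4 in sgRNA, 37.4 and 33.3 in INT, 38.2 and 36.0 in P4P6, and 32.6 and 31.0 in TOP1. IGF2BP3, the other fetal form, was at 27.5 and 27.2 in CasVP, 28.7 and 28.2 in sgRNA, 27.3 and 26.2 in INT, 26.6 and 26.7 in P4P6, and 29.2 and 27.3 in TOP1. IGF2BP1 was highest in P4P6 library 0 and IGF2BP3 in TOP1 library 0. IGF2BP2, which many adult tissues also express, was at 19.6 and 19.4 in CasVP, 18.2 and 18.8 in sgRNA, 20.8 and 19.01 in INT, 20.1 and 20.7 in P4P6, and 18.5 and 18.3 in TOP1. IGF2BP2 was the lowest of the family in each of the 10 libraries, and IGF2BP1 the highest.

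Of the AT-hook genes, HMGA1 was at 159.5 and 156.9 FPKM in CasVP, 155.2 and 154.8 in sgRNA, 169.6 and 164.5 in INT, 166.8 and 164.5 in P4P6, and 144.2 and 158.2 in TOP1. TOP1 library 0 stood lowest, apart from its partner, while INT and P4P6 lay above all other libraries. HMGA1 has processed pseudogenes and the handling of reads shared with them is not given in the sources used here, so its level is less certain than the others. HMGA2, the form most restricted to the embryo, was at 33.7 and 34.8 in CasVP, 37.9 and 36.8 in sgRNA, 37.7 and 35.4 in INT, 34.4 and 32.4 in P4P6, and 38.3 and 36.2 in TOP1. HMGA2 was lower in the CasVP and P4P6 libraries than in all libraries of the other groups.

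**Figure D2:**
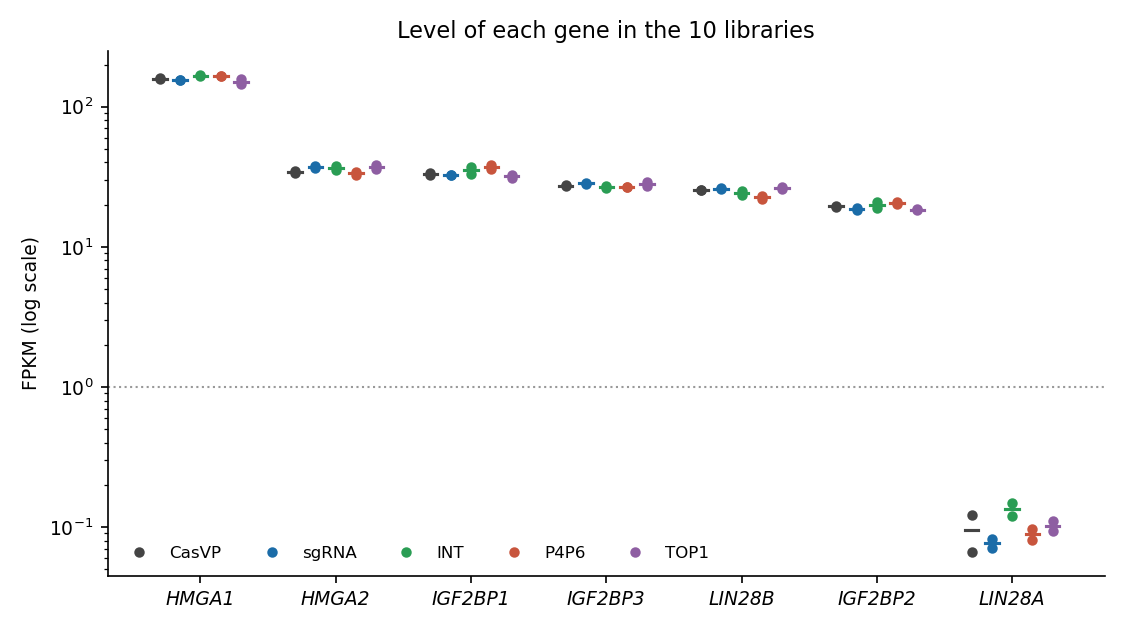
FPKM of each gene (log scale) in the 10 libraries, with 2 points and a bar at their mean for each group. The dotted line marks 1 FPKM, the mean level needed for testing. HMGA1 lies near 159, the next 5 genes between 18.2 and 38.3, and LIN28A below 0.15.

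The order of the genes was the same in nearly all libraries. HMGA1 stood 4.46-fold above HMGA2, and their ranges were far apart. HMGA2 was above IGF2BP1 in 8 of 10 libraries and below it in both P4P6 libraries, so these neighbours cannot be ordered. IGF2BP3 was above LIN28B in 10 of 10 libraries, by 1.04- to 1.22-fold, although their ranges over libraries overlapped. The ranges of IGF2BP1 and IGF2BP3, of LIN28B and IGF2BP2, and of IGF2BP2 and LIN28A did not overlap.

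The spread of the 6 genes over the 10 libraries was ordinary for their level. The coefficient of variation was 3.47% for IGF2BP3, 4.63% for HMGA1, 4.97% for IGF2BP2, 5.46% for HMGA2, 6.24% for LIN28B and 7.09% for IGF2BP1. Among features within 1.5-fold of the same level, the median was 5.48 to 5.99%. Of these features 12.3% varied less than IGF2BP3 and 75.8% varied less than IGF2BP1.

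The identity of the cells was checked with marker genes. The HEK293 list summed to 336 to 410 FPKM per library, led by the intermediate filament genes VIM (248 FPKM) and KRT18 (31.1), but the renal genes PAX2 (0.926) and LHX1 (0.504) averaged below 1 FPKM. Markers of pluripotent cells summed to 0.393 to 0.944 FPKM, with POU5F1 at 0.322 and NANOG at 0.153, far below LIN28B and the IGF2BP genes. The value of POU5F1 is that of 1 row, and its other rows were at 0 in all libraries. Whether reads were shared between these rows is not given. Markers of fibroblasts summed to 2.00 to 3.44 FPKM, led by COL1A1 (1.43), of blood cells to 0.974 to 1.56, of hepatocytes to 0.334 to 0.912 and of endothelium to 0.0483 to 0.214. Estimated depth ranged from 18900000 fragments in P4P6 library 0 to 27800000 in TOP1 library 0. Summed FPKM of named features was 522550 and 540085 in P4P6 and at least 548895 in every other library.

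The first comparison asks whether a guide changed these genes relative to dCas9-VP64 alone. No test in the 5 comparisons with CasVP called a member, and the estimated log2 changes lay between -0.16 and 0.17. The 4 comparisons of single guides share the CasVP libraries. P-values are two-sided, from limma on log2(FPKM + 1), adjusted by the Benjamini-Hochberg method over all 11574 tested features, and called when under 0.05.

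With all 4 guides pooled, limma called 0 of the 6 genes, against 0.0173% of all tested features. An unadjusted p under the same threshold was found for 0 of 6, beside 7.43% of features. The log2 change ran from -0.04 for LIN28B (-0.02 without INT library 0) to 0.08 for HMGA2, and the 95% intervals of the 6 genes lay between -0.13 and 0.17. In 0 of 6 were all guide libraries on 1 side of both CasVP libraries, against 4.82% of features. The median change of the 6 was 0.01, beside -0.003 for all tested features.

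For the guide named sgRNA, 0 of 6 genes were called by limma (0.0173% of features), with 1, HMGA2, at an unadjusted p under 0.05 (6.02% of features). Changes ran from -0.07 for IGF2BP2 (adjusted p = 0.829) to 0.12 for HMGA2 (adjusted p = 0.791) on the log2 scale. The sgRNA and CasVP libraries were apart, with no overlap, in 5 of 6 genes, all but IGF2BP1, where 46.0% of all features showed the same with 2 libraries against 2. For INT, 0 of 6 were called (0.0173% of features) and 0 had an unadjusted p under 0.05 (8.86% of features). Changes ran from -0.07 for LIN28B to 0.10 for IGF2BP1. They depended on which INT library was used, being -0.02 and 0.02 without INT library 0 and -0.12 and 0.18 without INT library 1. INT and CasVP did not overlap in 3 of 6 genes, beside 43.4% of features. For TOP1, 0 of 6 were called (0.00864% of features) and 0 had an unadjusted p under 0.05 (9.22% of features). Changes ran from -0.08 for IGF2BP2 to 0.12 for HMGA2 (0.08 without TOP1 library 0). TOP1 and CasVP did not overlap in 3 of 6 genes, beside 48.2% of features.

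For P4P6 against CasVP, limma called 0 of 6 genes (0.00864% of features), and 2 had an unadjusted p under 0.05, as did 22.2% of features. These were IGF2BP1, higher by 0.17 on the log2 scale (SE 0.06, adjusted p = 0.153), and LIN28B, at -0.16 (SE 0.05, adjusted p = 0.125). HMGA1 (0.07), IGF2BP2 (0.06), IGF2BP3 (-0.03) and HMGA2 (-0.03) had smaller values, that of HMGA2 turning to 0.0096 without P4P6 library 1 and to 0.0025 under quantile normalization. P4P6 and CasVP libraries were apart in 5 of 6 genes, against 51.6% of features.

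**Figure D3:**
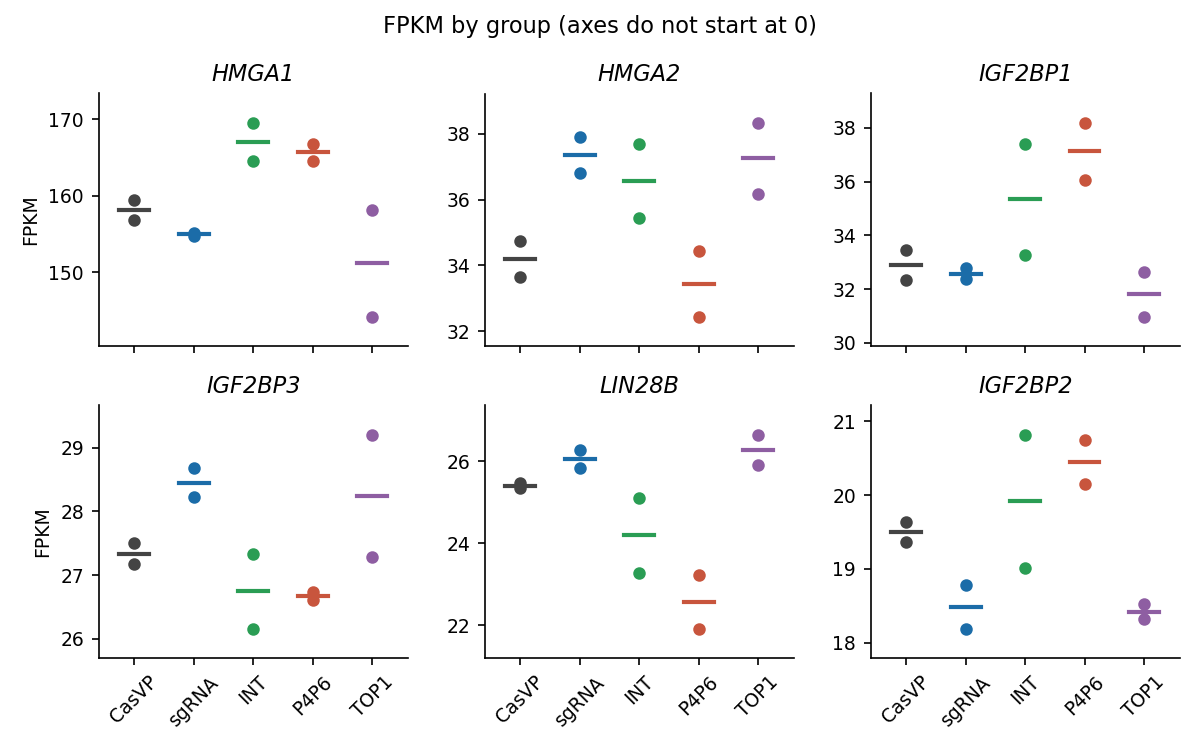
FPKM of the 6 tested genes in each group, 2 points per group with a bar at their mean; each panel has its own axis, which does not start at 0. LIN28B is lowest and IGF2BP1 highest in P4P6, where LIN28B is at 23.2 and 21.9 and IGF2BP1 at 38.2 and 36.0.

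The second comparison sets each modified guide against the guide named sgRNA, whose libraries these 3 tests share. LIN28B was lower with P4P6 than with sgRNA, 22.6 FPKM (SD 0.918, n = 2) against 26.1 (SD 0.317, n = 2), a log2 change of -0.20 (SE 0.05, 95% interval -0.32 to -0.08, limma adjusted p = 0.0412). It was the 1 member of 6 called, in a comparison in which 11.5% of all tested features were called. The call was lost without P4P6 library 1 (adjusted p = 0.143), without sgRNA library 0 (0.201) or without sgRNA library 1 (0.160), and the log2 change then lay between -0.21 and -0.16. It was also lost with no filter, with no intensity trend, with quantile normalization or with only the libraries of these groups in the fit (limma adjusted p = 0.0599 to 0.121), so it stands close to the threshold. Fewer cells with LIN28B and less LIN28B RNA per cell cannot be told apart in these bulk samples.

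The other 5 genes did not pass in P4P6 against sgRNA. The values were 0.18 for IGF2BP1 (limma adjusted p = 0.0772), -0.16 for HMGA2 (0.0843), 0.14 for IGF2BP2 (0.122), 0.10 for HMGA1 (0.219) and -0.09 for IGF2BP3 (0.252). An unadjusted p under 0.05 was found for 4 of the 6 genes, LIN28B, HMGA2, IGF2BP1 and IGF2BP2, beside 30.3% of all features. All 6 genes had P4P6 and sgRNA libraries that did not overlap, beside 56.5% of features. HMGA1 passed under quantile normalization, at 0.23 (limma adjusted p = 0.0389). IGF2BP1 and HMGA2 passed with a block by column index, which the labels do not give as a pairing. Depth was 18900000 and 21700000 fragments in P4P6 and 19300000 and 25500000 in sgRNA, and summed FPKM was also lower in P4P6. Their part in these values was not tested.

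For INT against sgRNA, limma called 0 of 6 genes (0.00864% of features) and 0 had an unadjusted p under 0.05 (8.77% of features). The changes ran from -0.10 for LIN28B to 0.11 for IGF2BP1. They were -0.05 and 0.03 without INT library 0, and -0.16 and 0.19 without INT library 1. INT and sgRNA libraries did not overlap in 5 of 6 genes, against 43.0% of features. For TOP1 against sgRNA, limma called 0 of 6 (0.00864% of features) and 0 had an unadjusted p under 0.05 (1.68% of features). The libraries overlapped in every member, leaving 0 of 6 apart beside 29.2% of features. Changes ran from -0.04 for HMGA1 to 0.01 for LIN28B, and the 95% intervals of the 6 genes lay between -0.17 and 0.13, so larger changes of these genes lie outside the intervals. Both of these values changed sign without TOP1 library 0, to 0.03 for HMGA1 and -0.0079 for LIN28B, and that of LIN28B also without sgRNA library 0, to -0.00017.

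**Figure D4:**
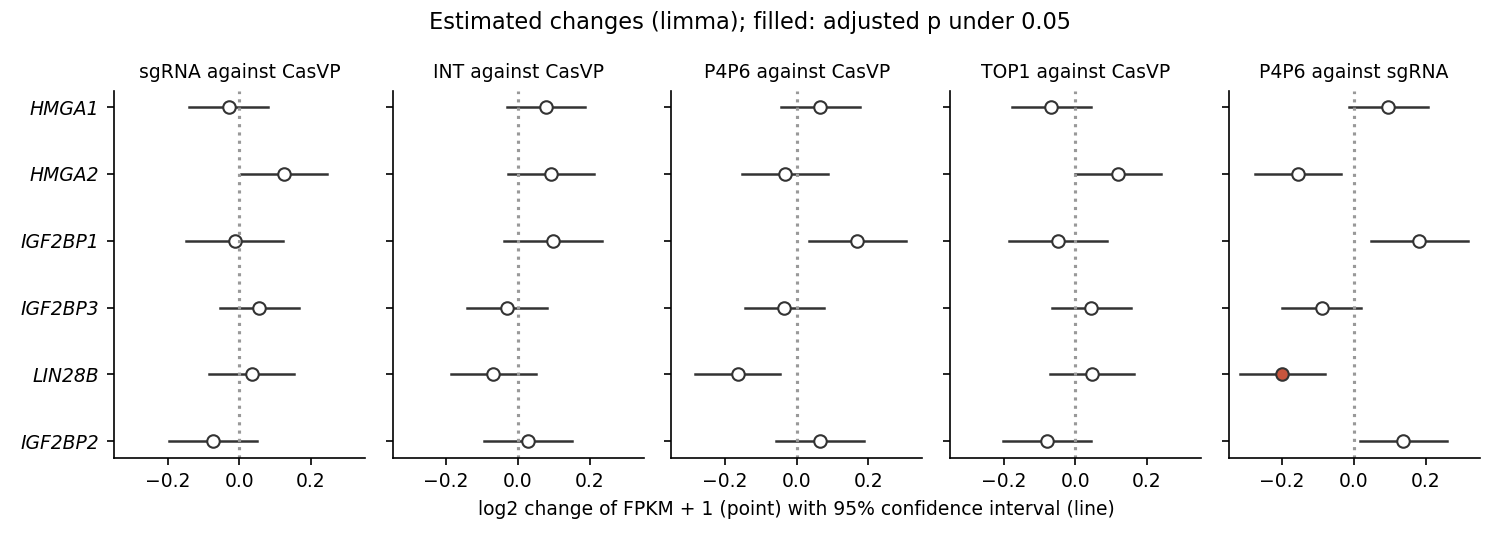
Log2 change of FPKM + 1 for the 6 tested genes (points) with 95% confidence intervals (lines) in the 4 comparisons of a guide with CasVP and in P4P6 against sgRNA. The filled point is LIN28B in P4P6 against sgRNA, at -0.20, the value with an adjusted p under 0.05; open points did not pass.

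Ratios within a library do not depend on the scaling between libraries. IGF2BP1 made up 40.4 to 44.96% of summed IGF2BP FPKM, IGF2BP3 31.3 to 36.3% and IGF2BP2 22.8 to 24.8%. The share of IGF2BP1 was 41.3% (SD 0.370, n = 2) in CasVP and 42.2% (SD 1.67, n = 8) with guides (difference 0.907, or 0.506 without P4P6 library 0, exact permutation p = 0.578). That of IGF2BP3 was 34.3% (SD 0.233, n = 2) and 34.0% (SD 2.08, n = 8), a difference of -0.270 (exact permutation p = 0.889), which turned positive without INT library 0 (0.026), P4P6 library 0 (0.116) or P4P6 library 1 (0.018). HMGA2 made up 16.5 to 21.0% of summed HMGA FPKM, 17.8% (SD 0.502, n = 2) in CasVP and 18.5% (SD 1.45, n = 8) with guides (difference 0.712, exact permutation p = 0.489). That difference was 0.357 without CasVP library 0 and 0.353 without TOP1 library 0.

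The ratio of LIN28B to IGF2BP1 was 0.608 in both P4P6 libraries, the lowest of the 10, and 0.622 to 0.836 elsewhere. It was 0.773 (SD 0.0163, n = 2) in CasVP and 0.731 (SD 0.101, n = 8) with guides, a difference of -0.042 (exact permutation p = 0.733), or -0.024 without P4P6 library 0 or without P4P6 library 1, and -0.026 without INT library 0. All 4 tests of ratios were two-sided over 45 splits, with an adjusted permutation p of 0.889 each. The splits treat all libraries as exchangeable, although they form groups of 2 and the guide libraries come from 4 different guides. These p-values are therefore only a rough description. The low ratio in P4P6 was seen in the values and is given as a description.

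**Figure D5:**
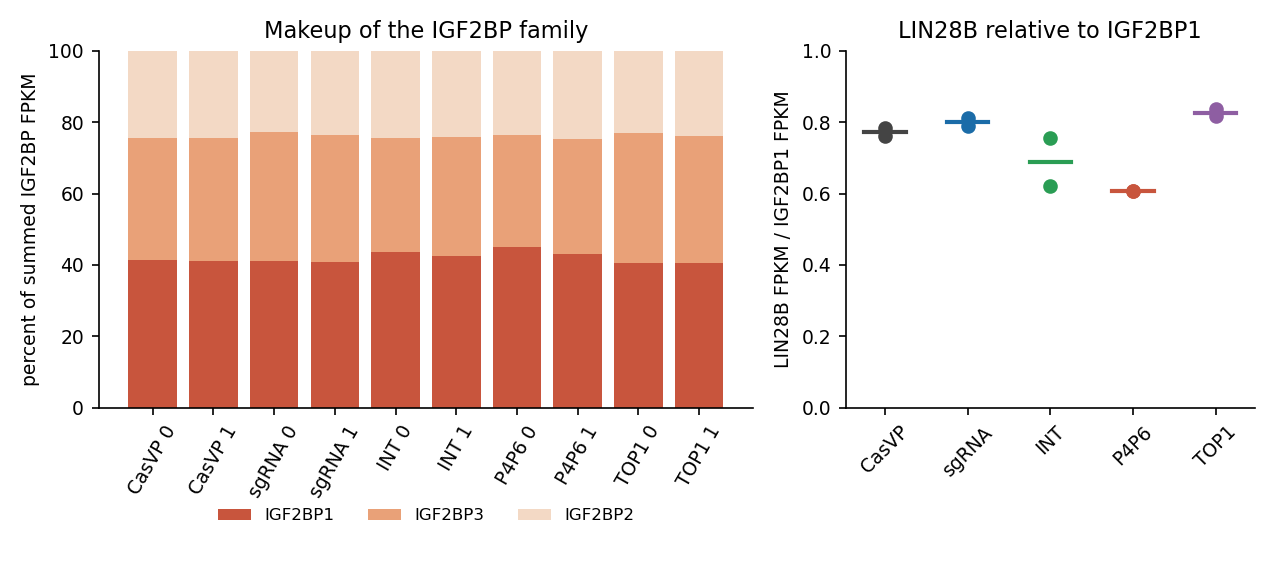
Left, share of each IGF2BP gene in summed IGF2BP FPKM (percent) in each library; right, LIN28B FPKM divided by IGF2BP1 FPKM, 2 points per group with a bar at their mean. IGF2BP1 holds 40.4 to 44.96% in every library, and both P4P6 libraries have a LIN28B to IGF2BP1 ratio of 0.608.

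The machinery around LIN28 and let-7 was present. Of 24 symbols and older symbols of let-7 processing searched, 17 were found, and all 17 averaged 1 FPKM or more. They were led by the RNA-binding protein HNRNPA1 (1094 FPKM), the export GTPase RAN (628) and the precursor-binding protein KHSRP (123). In P4P6 against sgRNA, where 11.5% of all features were called, 4 of the 17 passed. Higher in P4P6 than in sgRNA were the Argonaute genes EIF2C1 (AGO1, log2 change 0.25, limma adjusted p = 0.0447) and EIF2C2 (AGO2, 0.31, 0.0251). Lower were HNRNPA1 (-0.25, 0.0490) and RAN (-0.24, 0.0339). The median log2 change over the list in this comparison was 0.03, beside -0.01 for all features. In P4P6, CasVP and sgRNA in turn, mean FPKM was 9.23, 7.84 and 7.62 for EIF2C1 and 14.2, 12.2 and 11.3 for EIF2C2. It was 977, 1020 and 1160 for HNRNPA1 and 569, 613 and 669 for RAN, so CasVP lay between in all 4. TRIM71, itself a let-7 target with a role in stem cells, was at 2.39 FPKM and had the largest value of the list with all guides against CasVP, 0.19, followed by the Argonaute gene EIF2C3 at -0.13. Neither passed.

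Known let-7 targets outside the 3 families were active at moderate levels. Of 18 genes, 16 were tested, led by the transcription factor MYC (90.8 FPKM), the cell cycle phosphatase CDC25A (60.6) and the ubiquitin-conjugating enzyme CDC34 (40.2). In P4P6 against sgRNA the list median was 0.02, beside -0.01 for all features. With all guides against CasVP the largest values were 0.20 for the cyclin gene CCND1 and 0.18 for the insulin signalling adaptor IRS2. In that comparison 0 of 16 passed in limma (0.0173% of all features), with 3 at an unadjusted p under 0.05 (7.43% of all features).

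Protein partners of IGF2BP particles ranged from 21.0 FPKM for ELAVL1 to 408 for YBX1, followed by the poly(A)-binding protein PABPC1 at 388 and HNRNPU at 338. Of the 10 partners, 1 passed in P4P6 against sgRNA, near the 11.5% of all features called. It was the stabilising protein ELAVL1, which was higher in P4P6 than in sgRNA by 0.23 (limma adjusted p = 0.0251). The list median was -0.05, beside -0.01 for all features. PABPC1 (0.13) and FMR1 (0.07) had the largest values with all guides, and neither passed. Known IGF2BP-bound RNAs included MYC and BTRC (12.8 FPKM). In P4P6 against sgRNA 0 of 5 tested passed in limma (11.5% of all features), and 0 had an unadjusted p under 0.05 (30.3% of all features). Of the classical clients, the joint row of IGF2, INS and INS-IGF2 was at 0.702 FPKM, H19 at 0.231 and the joint row of ACTB and ACTG1 at 412. With all guides, BTRC was at -0.11 and MYC at 0.10, and neither passed.

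The N6-methyladenosine pathway, whose mark IGF2BP proteins read, was led by the writer subunits WTAP (90.0 FPKM) and METTL3 (56.6) and the reader YTHDF2 (69.9). In P4P6 against sgRNA limma called 0 of 13 genes (11.5% of all features), with 4 at an unadjusted p under 0.05 (30.3% of all features), and the list median was -0.01, the same as over all features. With all guides WTAP was at -0.10 and the nuclear reader YTHDC1 at 0.05, and neither passed.

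Several other high mobility group genes were more abundant than HMGA1, among them the nucleosome-binding genes HMGN2 at 446 FPKM and HMGN1 at 342, and the DNA-bending gene HMGB2 at 331. In P4P6 against sgRNA 4 of 10 were called, all lower in P4P6, beside 11.5% of all features called in either direction. These were HMGB2 (-0.36, limma adjusted p = 0.0251), HMGB3 (-0.26, 0.0499), HMGB1 (-0.24, 0.0231) and HMGN3 (-0.23, 0.0272). The median over the 10 was -0.17, beside -0.01 over all features, and 0 of 10 values were above 0, beside 47.6% of all features. HMGA1 was on the other side, at 0.10, and HMGA2 at -0.16, neither passing. Against CasVP, with the same P4P6 libraries, 0 of 10 passed in limma and the median was -0.06. An unadjusted p under 0.05 was found for 3 of 10, beside 22.2% of all features. In sgRNA against CasVP 0 of 10 passed and 9 of 10 values were above 0 (50.5% of all features), with a median of 0.09. There HMGB1, HMGB2 and HMGB3 had an unadjusted p under 0.05 (6.02% of all features). CasVP lay between P4P6 and sgRNA for the 4 called genes, HMGB3 averaging 51.2 FPKM in P4P6, 52.9 in CasVP and 61.55 in sgRNA. With all guides HMGB3 was at 0.14 and HMGN2 at 0.13, and neither passed. HMGB1, HMGB2, HMGN2, HNRNPA1 and RAN have many pseudogenes, so their levels are uncertain in the same way as that of HMGA1.

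In the 7 comparisons other than P4P6 against sgRNA, limma called 0 genes of each list above and of the oncofetal list that follows. An unadjusted p under 0.05 was found there for 0 to 5 genes of a list, beside 1.68 to 22.2% of all features. The calls in P4P6 against sgRNA belong to a comparison in which 1331 features were called, against 2 without P4P6 library 1 and 1 without sgRNA library 0 or without sgRNA library 1.

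Other oncofetal and pluripotency genes were mostly silent. Of the 17 symbols found, 4 were tested, the fetal liver proteoglycan GPC3 (68.8 FPKM), the DNA methyltransferase DNMT3B (7.74), the transcription factor SOX2 (3.69) and TRIM71. The fetal genes DLK1 and DNMT3L were listed at 0 in all libraries, AFP at 0 in 9 of 10, and the stem cell factor SALL4 was at 0.293 FPKM. GPC3 was at 0.06 on the log2 scale with all guides. In P4P6 against sgRNA 0 of 4 genes passed in limma (11.5% of all features), with 1, GPC3, at an unadjusted p under 0.05 (30.3% of all features).

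The features most like each gene across the 10 libraries were found by Pearson's r of log2(FPKM + 1) over 9126 candidates, and are given as a description, since libraries of a group are not independent of each other and the highest of many values is large by selection. For LIN28B they were DCAF13 (0.97) and DCLRE1A (0.97), and for IGF2BP1 they were SMEK1 (0.97) and LAMC1 (0.97). IGF2BP2 was most like DBT (0.97) and HOMEZ (0.96), and IGF2BP3 like the joint row of DNAJC9 and MRPS16 (0.97) and BTG3 (0.96). HMGA1 was most like KDM4A (0.96) and the joint row of PCBP2 and PRR13 (0.96), and HMGA2 like ZNF627 (0.96) and HNRPDL (0.96).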

How the data were processed

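Polyadenylated RNA of 10 HEK293FT libraries was analysed from the authors' deposited FPKM, 1 column per library. TopHat2 2.0.13, Cuffdiff 2.2.1 and the build hg19 are named, per the submitters' processing notes; which step each did, the gene models and how libraries were scaled to each other are not given in the sources used here. Groups came from the sample labels. Columns name a group and an index, 0 or 1, not matched to the labels' replicate numbers. Of 20246 features, 945 had no gene name and were left out.

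Values were tested as log2(FPKM + 1) with limma 3.58.1 in R 4.3.3 (intensity trend, all libraries in 1 fit, 5 residual degrees of freedom), over the 11574 named features that averaged 1 FPKM or more. The pseudocount understates changes of low genes. Ratios within a library were compared by exact permutation in Python 3.11.15. The limma fit was tested on simulated data. The members and lists were chosen with earlier results of these data known. Read counts were not used. Depth was estimated from low values, of which 79.5% of 11195 were within 0.05 of whole fragments, and from transcript lengths of 463 features, which gave 27400000 fragments in CasVP library 0 (interquartile range 23300000 to 29600000). These set the relative precision only.

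Besides all members, the rule for named genes takes, for each list, the 3 with the highest mean FPKM, the 2 tested ones with the largest change with all guides against CasVP, and all that passed. It also takes, for each tested member, the 2 features most like it that averaged 5 FPKM . PAX2, LHX1, H19, SALL4, DLK1, DNMT3L, AFP and the joint rows were named after their values were seen. A few genes that the rule takes are not reported here. The lists were let-7 processing, let-7 targets, IGF2BP partners, IGF2BP-bound RNAs, the N6-methyladenosine pathway, other high mobility group genes, other oncofetal genes and markers of HEK293, pluripotent, fibroblast, blood, hepatocyte and endothelial cells. Alternatives were a pseudocount of 0.1, no filter, a minimum mean of 5, median-of-ratios rescaling, quantile normalization, no trend, a block by index, the compared groups alone, ratios on the log2 scale and each library left out. The seed search first used the longest 3' UTR of each gene and was changed to the principal transcript when the longest HMGA2 form was seen to lack a match; the other 6 genes have the same transcript under both rules.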

Additional observations from a re-analysis of the deposited data

How the results depend on the processing

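The mean FPKM of each of the 7 genes moved by less than its SD over libraries under rescaling and with any library left out. This was bound to be so and tests nothing. Leaving out 1 library moves such a mean by only part of the SD, and the rescaling factors were 0.999 to 1.005. In the 7 comparisons other than P4P6 against sgRNA, 0 members were called under every alternative that kept both libraries of the groups compared. In P4P6 against sgRNA, 1 member was called, and 0 were called with no filter, with no trend and with the compared groups alone; leaving out a library gave 0 to 1. Quantile normalization also gave 1, HMGA1 in place of LIN28B. The number of all features called there was 1331, against 641 with no filter, 668 with no trend, 388 under quantile normalization and 2 with the compared groups alone, and 1 to 2046 with a library left out. P4P6 against CasVP had 1 feature called, and 764 without P4P6 library 0.

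The index of a column was not taken to pair the libraries, since the labels do not say that it does and the correlation of index differences between groups was over 0.1 in 8 of 10 pairs of groups but not in all (-0.036 to 0.415). With a replicate block by index, 3 members were called in P4P6 against sgRNA (LIN28B, IGF2BP1 and HMGA2), 2326 features there and 600 in P4P6 against CasVP; the block changed no other member's call.

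With a library left out, the change of HMGA2 in P4P6 against CasVP ran from -0.074 to 0.0096 (0.0025 under quantile normalization). In TOP1 against sgRNA that of HMGA1 ran from -0.103 to 0.0296, and that of LIN28B from -0.0079 to 0.0314, with -0.00017 without sgRNA library 0. The guide difference in IGF2BP3 share ran from -0.602 to 0.116 percentage points. The cause was not tested. With 2 libraries a group, small changes lie within the spread, and leaving 1 out assumes the remaining library varies like the other groups. LIN28A is too low to compare between groups.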
